A study of Mus spretus with 12 samples.

Results

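The array of this study carries 4450 probes that name no gene and are known only by a stretch of the mouse genome and a strand, each described in the scanner files as a lincRNA, a long intergenic noncoding RNA. Of these 4450 interval regions, 1306 were selected on detection: the scanner software had to flag the probe as well above background throughout some group of 4 arrays. The array holds 56605 probes in all once control spots are left out, and 27098 of them passed the same rule. The regions were thus chosen by a measured value, that flag, so their being above background is a description and no finding. None of the interval names begins with the word lincRNA: all 4450 were found by their chromosome and interval.

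The samples were livers of male SPRET/EiJ mice, an inbred strain of Mus spretus, 22 months old per the labels and fed for 60 days. There were 3 groups with 4 arrays each. Control mice received Teklad diet with corn oil. The DDE group received that diet with 450 mg of p,p'-DDE per kg, a persistent breakdown product of the insecticide DDT, dissolved in corn oil. The remaining group, called DDE plus must here, had the DDE diet together with drinking water holding Pedro Ximenez must, the unfermented juice of a grape, at 85 mg/L of polyphenols and 31 g/L of glucose and fructose in equal parts. No group received must without DDE, so a change from must itself cannot be told apart from a change in the response to DDE. No group received the sugars without the polyphenols, so these parts of the must cannot be told apart either. Old mice of 1 inbred strain and 1 sex are what these values describe. The probes are 60 bases long and carry positions on the laboratory mouse genome. Their match to Mus spretus was not tested, nor their match to other transcripts, beyond letters shared with other probes of the array.

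Long intergenic noncoding RNAs are transcripts that lie between protein-coding genes and carry no long reading frame. Many are spliced and end in a poly(A) tail as messenger RNAs do, most are present at low levels, and many are found in few tissues. Some act in the nucleus on neighbouring genes or on chromatin, while for most no function is known. Early catalogues drew such intervals from chromatin marks and from sequenced transcripts, and an array built on them asks on which strand, if any, an interval is transcribed.

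The sequences of regions that recur below are shown here because they are the only identity these regions have besides their position. They are the probe sequences in the scanner files, 5′ to 3′ on the strand named, with positions on build mm9 per the file headers. The first 2 changed in opposite directions with must, the next 2 rose with DDE, and the capitals mark the letters AATAAA, the common signal for cutting and polyadenylation.
chr14:62263564-62307496, reverse strand: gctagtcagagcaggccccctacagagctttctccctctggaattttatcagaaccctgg
chr9:121845920-121858120, forward strand: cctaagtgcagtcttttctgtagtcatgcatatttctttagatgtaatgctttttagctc
chr1:52706748-52712402, reverse strand: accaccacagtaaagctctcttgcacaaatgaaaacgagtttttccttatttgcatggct
chr19:53517903-53540753, forward strand: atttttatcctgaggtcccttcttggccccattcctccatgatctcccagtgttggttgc
chr1:194659312-194661407, reverse strand: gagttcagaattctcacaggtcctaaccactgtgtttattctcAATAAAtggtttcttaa
chr2:75481116-75481679, reverse strand: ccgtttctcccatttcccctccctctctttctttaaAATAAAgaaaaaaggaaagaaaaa
chr17:39960567-39992817, reverse strand: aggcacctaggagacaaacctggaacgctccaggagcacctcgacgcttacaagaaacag

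The motif AATAAA was searched in the letters of every probe, on the named strand and on the other. It stood on the named strand in 68 of the 1306 kept regions, or 5.21%, and in 110 of the 3144 regions that were not kept, or 3.50%. On the other strand it stood in 2.83% and 2.73% of them. Among the 25792 other kept probes, which mostly sit near the end of messenger RNAs, 11.9% held it on the named strand and 3.77% on the other. A match is a description of these letters and not of a site in use.

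The 4450 regions belong to 3230 intervals, and 1096 intervals had at least 1 kept region. Intervals that overlapped merged into 2150 stretches, of which 889 had a kept region. The intervals with a kept region ran from 90 to 533972 bases, with a median of 11231 bases. Both strands were kept at nearly the same share, 655 of 2228 forward regions (29.4%) and 651 of 2222 reverse regions (29.3%). The other probes of the array were kept more often, at 49.5%. The probe of 1284 kept regions lay inside its interval on the strand its name gives, and the remaining 22 have no coordinates for the probe itself. Kept regions lay on 20 chromosomes.

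The intervals fall into 2 kinds by their length, which the rule did not use. For 1731 regions the end minus the start of the interval was a multiple of 25 bases, and 1301 of these lay in an interval probed on both strands. Of the 2719 other regions, 592 did. The first kind was kept in 33.7% of cases and the second in 26.6%. Of 468 intervals that were probed on both strands and had a kept region, 132 had one on both strands and 336 on 1 strand only.

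Of the 1306 kept regions, 1067 were well above background on all 12 arrays. A further 63 reached the threshold in both DDE groups and not in control, 56 in DDE plus must only, 43 in control only, 30 in control and DDE plus must, 29 in control and DDE, and 18 in DDE only. Passing through 1 group favours regions that are brighter in it, so counts of change over the kept regions are descriptions. Levels are log2 ratios of a probe's intensity to the 75th percentile of its array, so that 0 is the 75th percentile of an array. Just inside the threshold, the 17 regions flagged on 4 or 5 arrays had mean levels from -5.57 to -4.30. Just outside it, the 90 regions flagged on 3 arrays of a group and never on 4 had mean levels from -6.09 to -3.94.

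The kept regions were dim. Their median level over the 12 arrays was -2.12, with quartiles of -3.49 and -0.05, against a median of -0.34 for the other kept probes. A level above 0 was seen in 323 regions (24.7%) and in 46.3% of the other kept probes. The signal of a probe depends on its letters as well as on its target, so an order of signal among regions says nothing of the amounts of their RNA. The standard deviation within a group had a median of 0.16 log2 units over the kept regions, of 0.10 over those with a level above 0 and of 0.11 over the other kept probes. No kept region was saturated on any array.

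Facts of the whole series bear on every comparison below. Between 50.1% and 52.0% of probes were well above background on each array. The markers of hepatocytes (all 10 kept) had a summed level of 12.3 to 12.5 in control and of 11.9 to 12.2 over the arrays of both DDE groups. Markers of other tissues and cells differed between the groups as well. The 12 skeletal muscle markers summed to 8.79 to 8.83, 7.38 to 7.50 and 6.95 to 7.04 in the same order, and the 10 pancreatic acinar markers to 9.23 to 9.34, 8.80 to 8.98 and 11.1 to 11.1. The 8 adrenal cortex markers summed to 4.76 to 4.87, 1.82 to 1.88 and 5.50 to 5.64. Among immune cells, the 6 kept neutrophil markers summed to 5.7 to 5.8, 5.4 to 5.5 and 2.9 to 3.1. The 5 kept markers of B and plasma cells summed to 2.51 to 2.60, 1.08 to 1.25 and 0.51 to 0.58. Further lists are not given here. The part of these tissues and cells in the levels of the regions was not tested. In a bulk sample fewer cells of a kind and less RNA per cell cannot be told apart.

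Regions were called more often lower than higher in all 3 comparisons. With DDE against control, 130 kept regions (9.95%) were higher and 377 (28.9%) lower by limma at a Benjamini-Hochberg adjusted p under 0.05 over all 27098 kept probes. The background over those 27098 probes was 23% higher and 24.5% lower. For DDE plus must against DDE the counts were 98 higher (7.50%) and 345 lower (26.4%), against a background of 18.6% and 27.1%. In DDE plus must against control they were 187 higher (14.3%) and 589 lower (45.1%), against 31.3% and 37.2%. The share called higher lay under the background in each comparison, while the share called lower lay near it, or somewhat above it in the comparisons with control.

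Called changes of at least 2-fold were rarer. With DDE, 23 regions rose and 28 fell by that much against control, or 1.76% and 2.14%, beside a background of 0.989% and 2.76%. With must added to DDE, 7 rose and 30 fell (0.54% and 2.30%), beside 1.17% and 2.08%. Against control, 23 rose and 160 fell in DDE plus must (1.76% and 12.3%), beside 2.58% and 9.56%. These counts include regions kept through the group in which they are high. Among the 1067 regions above background on all 12 arrays, 9 rose and 11 fell at least 2-fold with DDE (0.84% and 1.03%). With must added, 4 rose and 16 fell (0.37% and 1.5%). In DDE plus must against control, 6 rose and 110 fell (0.56% and 10.3%). The shares set beside the earlier counts are over all kept probes. No such share limited to probes above background on all 12 arrays is given here, so the counts for the 1067 regions are only descriptions.

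The median change of the kept regions was -0.17 log2 units with DDE, -0.12 with must added and -0.25 in DDE plus must against control. Over all kept probes the medians were -0.01, -0.03 and -0.04. The sign of the regions' own median and the split of their calls rest on how the arrays are scaled. Centring each array on its median moved the median of all kept probes to 0.22, 0.11 and 0.33, and that of the regions to 0.07, 0.03 and 0.13. The calls then stood at 319 higher (24.4%) and 160 lower (12.3%) for DDE. For must added to DDE they were 233 (17.8%) and 200 (15.3%), and for DDE plus must against control 477 (36.5%) and 323 (24.7%). The background over all kept probes under this centring was 47.1% higher and 10.5% lower, 32.7% and 15.9%, and 55.2% and 19.7% in the same order. Under 75th percentile scaling the regions' median lay below that of all kept probes by 0.15, 0.08 and 0.21 log2 units in the 3 comparisons, and it lay below it under each of the 5 other scalings as well, where the distance in DDE plus must against control ran from 0.10 to 0.21.

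**Figure D1:**
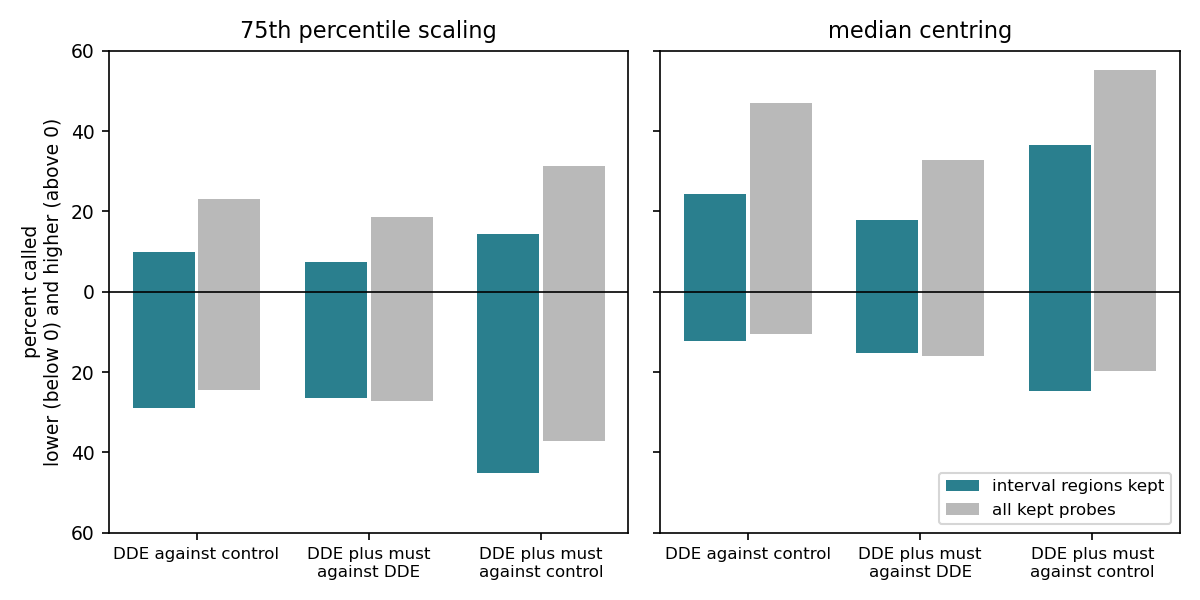
Percent of features called higher (above 0) and lower (below 0) in each comparison, for the 1306 kept interval regions and for all 27098 kept probes, under 75th percentile scaling (left) and median centring (right). The interval regions are called higher less often than all kept probes in every pair of bars, while the share called lower depends on the scaling.

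The medians were also taken within 5 classes of mean level. Among the 246 regions with a level of -1 to 1, the median change with DDE was -0.13, against 0.04 for the 5523 other kept probes of that class. In the class from 1 to 3 it was -0.19 for 115 regions and 0.09 for 4563 others, and above 3 it was -0.09 for 94 regions and 0.02 for 4724 others. In the dimmest class, below -3, the 460 regions (-0.21) and the 4761 others (-0.20) had nearly the same median. The comparison of DDE plus must with control gave the widest gap in the class from 1 to 3, at -0.35 for regions and 0.12 for others.

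**Figure D2:**
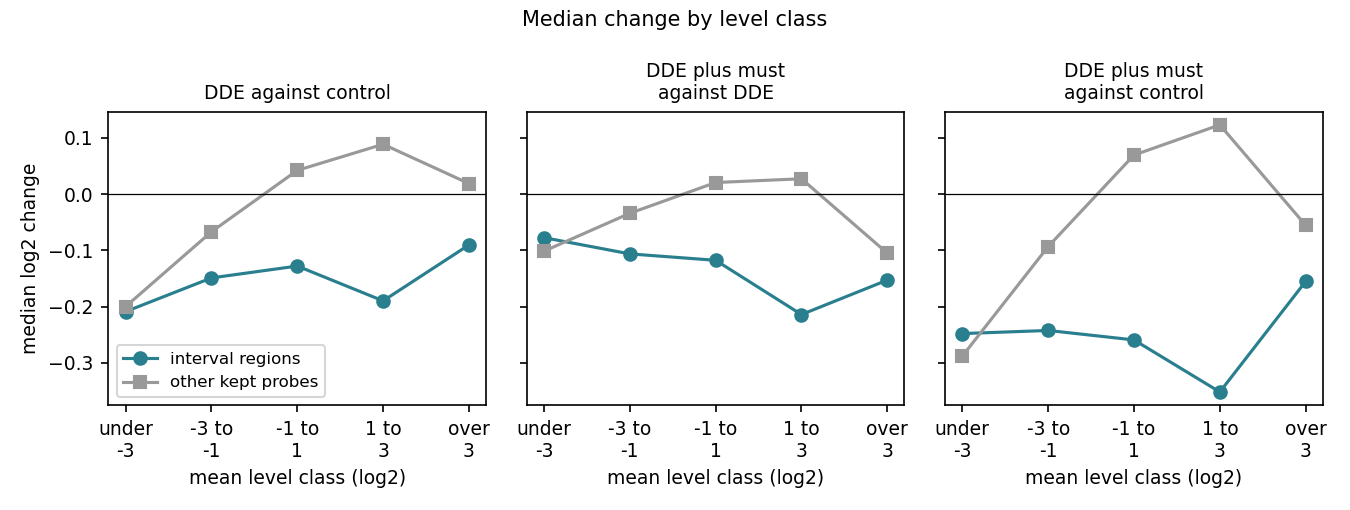
Median log2 change (vertical axis) of kept interval regions and of other kept probes in 5 classes of mean level over the 12 arrays (horizontal axis), in the 3 comparisons. The regions lie below the other probes in the 4 brighter classes of each panel and close to them in the dimmest.

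Each slide held arrays of 2 or 3 groups, and the regions' median change was taken within slides too. It was -0.23 to -0.11 on the 3 slides that held both DDE and control, -0.16 to -0.04 on the 3 with DDE and DDE plus must, and -0.27 to -0.22 on the 3 with control and DDE plus must. The median of all kept probes within slides was -0.03 to 0.00, -0.04 to -0.02 and -0.06 to -0.02 in the same order, and on 1 slide with DDE and DDE plus must it was as low as that of the regions (both -0.04).

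The regions that rose most with DDE and were above background on all arrays fell into those that stayed high with must and those that did not. The region chr9:78107225-78118850 on the forward strand, probed at bases 78116834 to 78116893, had levels of 5.24, 5.28, 5.24 and 5.04 in control and of 6.62, 6.74, 6.65 and 6.74 with DDE. With DDE plus must its levels were 6.95, 6.72, 6.71 and 6.74. Both DDE groups thus lay above every control array and overlapped each other. The rise with DDE was 1.49 ± 0.07 log2 units (SE, n = 4 and 4), or 2.81-fold, with an adjusted p of 3.4e-08 by limma.

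The region chr19:53517903-53540753 on the forward strand, shown above, was likewise higher in both DDE groups. Its values were -1.37, -1.59, -1.70 and -1.82 in control, -0.11, -0.22, -0.34 and -0.06 with DDE, and 0.13, 0.05, 0.10 and 0.11 with DDE plus must. The rise with DDE was 2.71-fold (adjusted p = 3.6e-07, limma) and that of DDE plus must over control 3.29-fold. The interval overlaps LOC73899, an uncharacterised locus on the same strand, whose own probe was above background on the 4 DDE plus must arrays and on no other. A further region, chr8:13200727-13207714 on the forward strand, rose from -3.56 ± 0.26 (SD, n = 4) in control to -2.43 ± 0.06 and -1.98 ± 0.18 in the 2 DDE groups.

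A second set was high with DDE alone. The region chr1:52706748-52712402 on the reverse strand had levels of 1.31, 0.96, 1.17 and 1.04 in control, 2.30, 2.38, 2.36 and 2.33 with DDE, and 0.96, 0.86, 0.90 and 0.78 with DDE plus must. Every DDE array stood above all 8 arrays of the other groups. It rose 2.34-fold with DDE (adjusted p = 2.0e-07, limma) and fell 2.77-fold with must added (adjusted p = 4.7e-08, limma). The interval lies 0.765 kb from the probe of Mfsd6, a gene for a membrane transporter of the major facilitator family on the same strand. The Mfsd6 probe took another course, rising by 0.40 log2 units with DDE and by a further 0.33 with must.

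The region chr7:126872550-126886125 on the reverse strand went from -2.91 ± 0.34 (SD, n = 4) in control to -1.44 ± 0.08 with DDE and back to -2.84 ± 0.15 with must. Its probe is the reverse complement of a probe for Ppp1cc, a catalytic subunit of protein phosphatase 1, over 52 bases, although Ppp1cc lies on chromosome 5. The Ppp1cc probe rose with DDE by 0.30 log2 units and its change with must, -0.12, did not pass (adjusted p = 0.087, limma). Likewise chr11:33414450-33450750 on the forward strand had means of -3.14, -1.86 and -3.36 in control, DDE and DDE plus must, and chr5:104936417-104984892 on the reverse strand of -2.92, -1.78 and -2.92. For the last, DDE plus must and control differed by 0.00 ± 0.10 log2 units (SE).

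**Figure D3:**
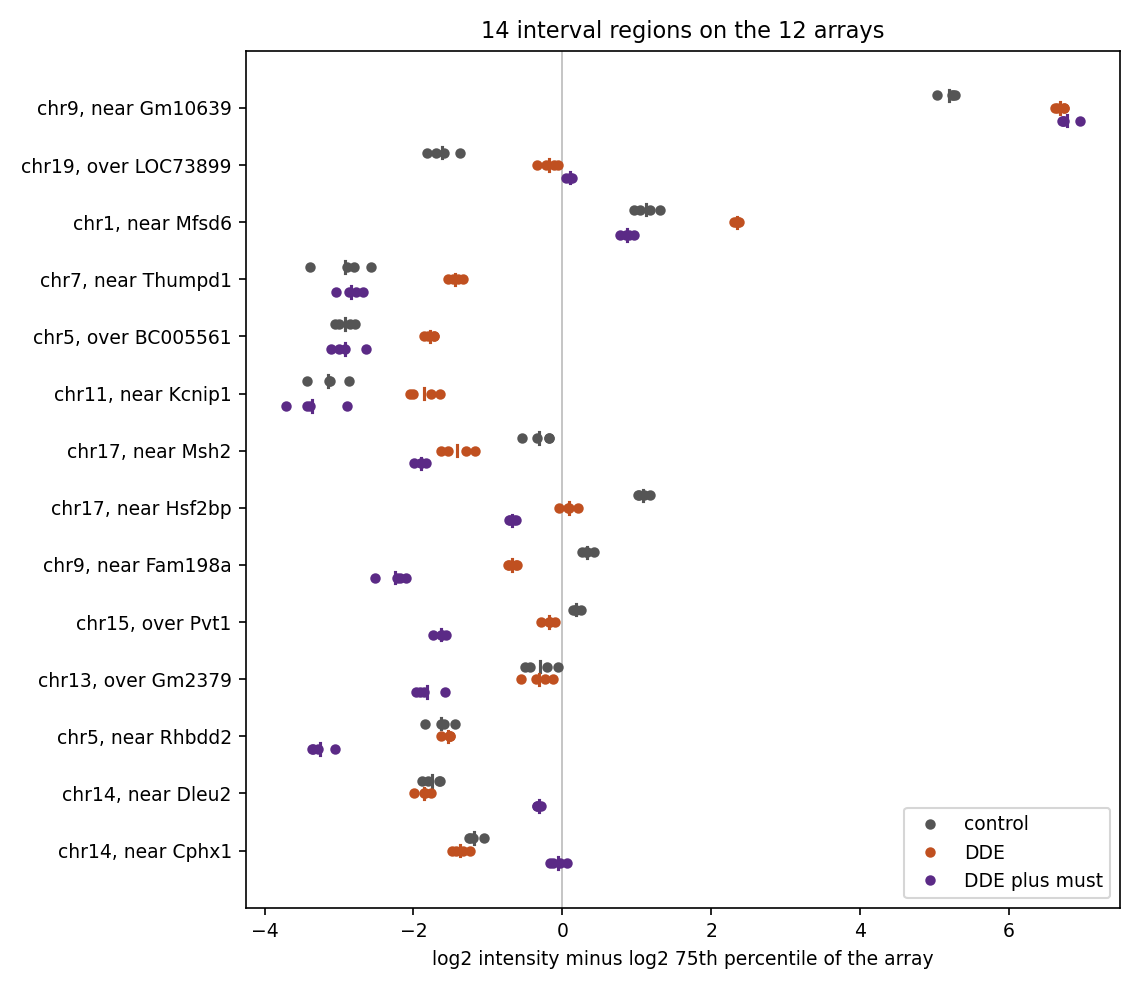
Level of 14 interval regions on each of the 12 arrays (log2 intensity over the array's 75th percentile), labelled by chromosome and nearest named gene; dots are arrays and short bars are group means. From top to bottom are regions high in both DDE groups, regions high with DDE alone, regions low with DDE, regions low with must, and 2 regions high in the DDE plus must group only.

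Of the regions that fell with DDE, several fell further with must. The region chr17:32035750-32056000 on the reverse strand had levels from 1.02 to 1.18 on the 4 control arrays, 0.21, -0.05, 0.09 and 0.08 with DDE, and -0.72, -0.70, -0.62 and -0.65 with DDE plus must. The 3 groups did not overlap. The fall against control was 1.00 ± 0.06 log2 units (SE) with DDE and reached 1.75 ± 0.06 with must, which is 3.38-fold lower (adjusted p = 8.3e-10, limma). Its nearest named gene is Hsf2bp, 25.8 kb away, which encodes a protein that binds the heat shock factor HSF2; the Hsf2bp probe changed by -0.76 log2 units in DDE plus must against control and by -0.09 with DDE, which did not pass.

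The region chr17:88225376-88238756 on the forward strand fell from -0.31 ± 0.17 (SD, n = 4) to -1.41 ± 0.21 with DDE and was at -1.91 ± 0.06 with must. On chromosome 4, chr4:33375464-33377138 on the reverse strand went from -0.46 ± 0.28 to -1.76 ± 0.20 and -2.14 ± 0.31, of which the last step did not pass (adjusted p = 0.095, limma). The region chr1:194659312-194661407 on the reverse strand, whose probe holds AATAAA, fell from -2.51 ± 0.12 to -3.67 ± 0.23 and -4.29 ± 0.35. Its last step did not pass under 2 of the other scalings. Sertad4, a gene for a nuclear protein of the SERTA family whose probe lies 9.92 kb from that interval on the same strand, went the other way, at 0.36 log2 units higher with DDE and 0.55 higher with DDE plus must than in control.

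The largest fall with DDE among regions above background on all arrays was uneven among the DDE arrays. The region chr5:74487385-74497428 on the reverse strand had control levels of 2.03, 1.46, 1.83 and 1.71. Its DDE levels were 1.44, 0.74, -0.65 and -0.88, and those with DDE plus must were 0.32, 0.22, 0.25 and -0.19. The DDE arrays lay below control without overlap (fall of 1.59 ± 0.43 log2 units, SE, adjusted p = 0.0096, limma), and the highest of them missed the lowest control array narrowly. A similar spread was seen in chr13:70745633-70776516 on the reverse strand, with DDE levels of 0.35, -1.31, -1.20 and 1.66, although the 4 DDE plus must arrays, from -2.07 to -1.62, lay below all of them. With slides as a block, neither the fall with must nor that of DDE plus must against control passed there (adjusted p = 0.0608 and 0.0501, limma). A second, dimmer kept probe of that chromosome 13 region, at a mean level of -4.15, did not share the fall with must. Its changes were -0.65 with DDE, 0.04 with must added and -0.61 in DDE plus must against control.

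A set of regions was lower with must added while DDE alone and control overlapped. The region chr13:98281158-98285757 on the forward strand stood at -0.30 ± 0.20 (SD, n = 4) in control, -0.32 ± 0.18 with DDE and -1.82 ± 0.17 with must, a 2.84-fold fall against DDE (adjusted p = 2.9e-06, limma). It overlaps the predicted gene Gm2379 on the same strand, whose probe fell by 1.68 log2 units in that comparison. The region chr5:136129679-136148860 on the reverse strand was at -1.45, -1.62, -1.84 and -1.59 in control, -1.51, -1.63, -1.50 and -1.52 with DDE, and -3.35, -3.06, -3.28 and -3.36 with must. Control and DDE overlapped, and both lay above every array of DDE plus must.

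Other regions fell in both steps. The region chr9:121845920-121858120 on the forward strand had levels of 0.32, 0.33, 0.43 and 0.27 in control, -0.63, -0.73, -0.61 and -0.72 with DDE, and -2.22, -2.09, -2.51 and -2.19 with must. It was 6.02-fold lower in DDE plus must than in control (log2 change -2.59 ± 0.08, SE, adjusted p = 3.9e-10, limma), and the 3 groups did not overlap. The nearest named gene, Fam198a on the same strand, lies 16.1 kb away and changed by -0.36 log2 units in the same comparison, which did not pass.

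The region chr15:61984389-62102500 on the forward strand overlaps Pvt1, a long noncoding RNA gene beside Myc. Its levels were 0.17, 0.25, 0.18 and 0.14 in control, -0.28, -0.10, -0.18 and -0.17 with DDE, and -1.63, -1.56, -1.73 and -1.62 with must. It fell 2.74-fold with must (adjusted p = 3.9e-09, limma). The probe of Pvt1 nearest to it shares 28 bases with it and fell by 0.61 log2 units with DDE and by 1.29 with must, beside 0.37 and 1.45 for the region. Under median centring the region's change with DDE was -0.14 and did not pass.

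Rises seen only in the DDE plus must group were fewer. The region chr14:62263564-62307496 on the reverse strand had levels of -1.81, -1.89, -1.66 and -1.64 in control, -1.77, -1.99, -1.84 and -1.86 with DDE, and -0.34, -0.34, -0.32 and -0.28 with DDE plus must. Control and DDE overlapped, and all 4 must arrays stood above both. The rise over DDE was 2.92-fold (adjusted p = 1.3e-08, limma). The interval lies 12.3 kb from the nearest probe of Dleu2, a long noncoding RNA gene that hosts microRNAs, on the same strand, which was above background on no must array. A second probe of Dleu2, above background on all 12 arrays, fell by 0.59 log2 units with must added.

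The region chr14:26834450-26847000 on the reverse strand rose 2.48-fold over DDE, from -1.37 ± 0.11 (SD, n = 4) to -0.06 ± 0.10, with control at -1.19 ± 0.09. The region chr2:75481116-75481679 on the reverse strand, whose probe holds AATAAA, was 0.97 log2 units higher with must added (adjusted p = 7.5e-04, limma), after a fall of 0.57 with DDE that did not pass under median centring. The region chr4:155602145-155602619 on the reverse strand moved likewise, falling by 0.50 and rising by 0.94 log2 units. Its neighbour Klhl17, a gene for an actin-binding adaptor protein 0.854 kb away on the same strand, had changes of 0.08 and 0.01 log2 units, which did not pass.

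Some regions were not above background on any array of a group, so only a bound can be given for them. It sets the brighter group's mean over the mean, per array of the dimmer group, of the higher of the region's own level and the lowest level among all probes well above background. With DDE against control, 14 regions were above background on all 4 DDE arrays and on no control array, and 7 the reverse. In DDE plus must against control the counts were 23 and 11, and between DDE plus must and DDE they were 3 in each direction. Such regions passed the filter through a group in which they are bright. The same counts over all kept probes are not given here, so these only describe the regions.

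The region chr8:122945743-122946192 on the forward strand had control levels of -3.03, -3.45, -3.28 and -3.23 and no array above background in the other 2 groups. It was at least 2.64-fold lower with DDE and at least 3.17-fold lower with DDE plus must. In the other direction, chr8:108153471-108159346 on the reverse strand was above background on no control array and was at least 1.89-fold higher in DDE plus must than in control. The region chr2:113880070-113887230 on the forward strand was above background on the 4 DDE arrays alone, and was at least 2.28-fold lower with must added. That interval lies 5.14 kb from the probe of Actc1, the actin of heart muscle, on the other strand, which fell by 1.73 log2 units with DDE and by a further 0.72 with must.

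All 5 regions of the array that lie at the ribosomal RNA locus of chromosome 17 were kept, and they were singled out after their values were seen. Ribosomal RNA is transcribed as 1 long precursor and then cut, so that spacers between the mature RNAs are degraded while the 18S and 28S RNAs stay. In order along the genome, the probes lie at -3.76, -3.49, -2.67, -1.19 and 1.57 kb from the probe of Rn18s, the mature 18S RNA. The first 3 read the reverse strand, opposite to Rn18s, and the last 2 the forward strand, as Rn18s does.

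Region 1, chr17:39960567-39992817, had levels of 0.99, 1.04, 1.19 and 0.99 in control, 0.85, 0.86, 0.84 and 0.80 with DDE, and 1.95, 1.93, 2.11 and 1.94 with must. Its rise with must was 1.15 ± 0.06 log2 units (SE, adjusted p = 6.7e-08, limma). Region 2, chr17:39979941-39981793, went from means of -1.06 in control and -1.33 with DDE to -0.23 with must, and region 3, chr17:39980973-39981876, rose by 0.88 log2 units over DDE. Regions 4 and 5, chr17:39982023-39983277 and chr17:39983902-39985688, rose by 0.84 and 0.36, and all 5 passed the test.

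With DDE against control the same 5 had changed by -0.22, -0.27, -0.22, -0.46 and -0.63 log2 units in that order, each called under 75th percentile scaling. Under median centring regions 1 and 3 turned to 0.01 each and region 2 was at -0.04, none of which passed. The call of region 2 was lost under 3 further scalings, and that of region 3 under 14 further alternatives. Against control, DDE plus must was higher in regions 1 to 4, by 0.93, 0.83, 0.66 and 0.39 log2 units. Region 5 was 0.27 lower, a direction that 4 of 5 other scalings turned, median centring to 0.10 higher. The rise of all 5 with must added kept its direction under the 5 other scalings. The probe of Rn18s changed by -0.21 with DDE and by -0.18 with must under 75th percentile scaling, and by 0.02 and -0.03 under median centring, so its direction with DDE rests on the scaling. With must added it was lower under 2 of the 5 other scalings and higher under none. Whether the spots of Rn18s were saturated was not examined, so its course is no measure against which to set the 5 regions. Rn28s1, the 28S RNA, changed by -0.32 with must, which did not pass (adjusted p = 0.30, limma), and LOC101056014, an uncharacterised locus that the first interval overlaps, by 0.29.

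**Figure D4:**
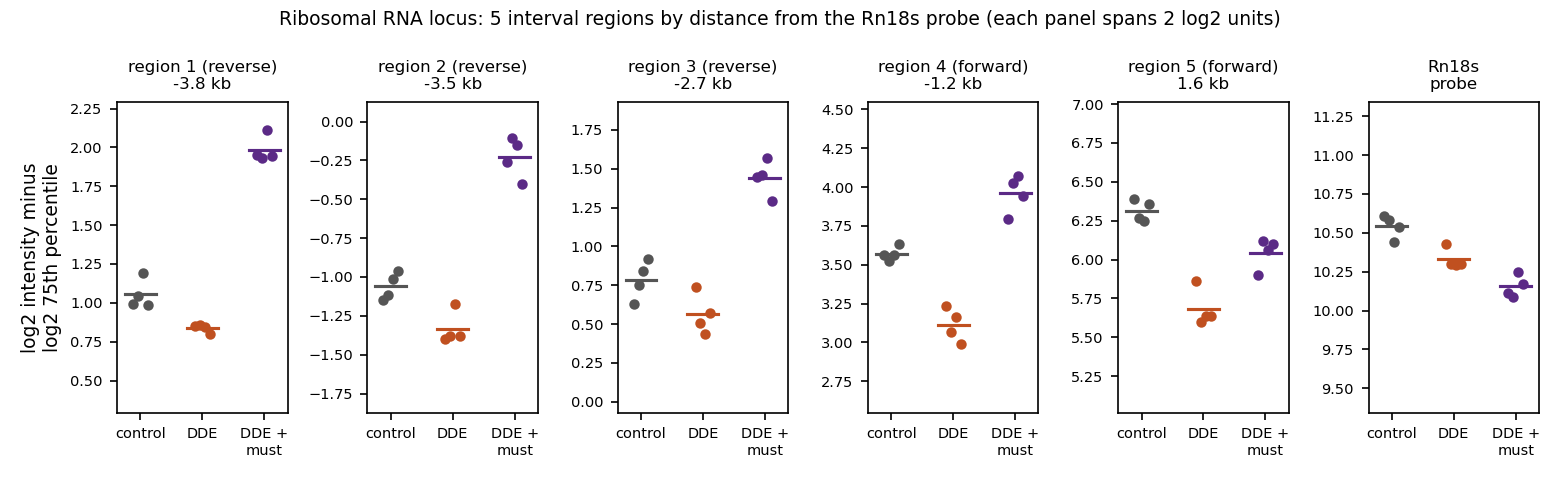
Levels on each array (log2 intensity minus the log2 75th percentile; dots are arrays, lines are group means) of the 5 regions of the ribosomal RNA locus, ordered by the distance of their probes from that of Rn18s, and of Rn18s; each panel spans 2 log2 units at its own level. The DDE plus must arrays lie above the DDE arrays in the 5 regions and, under the 75th percentile scaling plotted here, below them in Rn18s.

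On chromosome 9, 3 probes of 2 overlapping intervals were looked at together, again after their values were seen. The region with the 2.81-fold rise described above abuts the probe of chr9:78104935-78116974, which covers bases 78116774 to 78116833 of the same strand. That second region, among the 6 with the highest signal, was at 7.97 ± 0.06 (SD, n = 4) in control, 8.37 ± 0.02 with DDE and 8.40 ± 0.01 with must, so it rose by 0.40 log2 units where its neighbour rose by 1.49. Both share letters with a probe described in the files only as a predicted gene, at 78169106 to 78169165 of the same chromosome. Mean levels were 6.22 and 8.25 for the first and second region and 3.05 for the probe of the predicted gene. From which gene the signal of the regions comes was not tested. The shared stretches are shown as letters that the 2 regions have in common with that probe.
shared by chr9:78107225-78118850 and the predicted gene, 23 bases: aagaagcaaggaaggctttcaag
shared by chr9:78104935-78116974 and the predicted gene, 20 bases: agaaagcctcccatggatgc

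The probe of that predicted gene rose with DDE by 2.08 ± 0.22 log2 units (SE, adjusted p = 2.3e-05, limma) and changed by 0.30 with must, which did not pass. Genes for alpha-class glutathione S-transferases, which join glutathione to reactive compounds, lie on the same stretch of chromosome 9. Among them the probe of Gsta2 rose by 0.41 log2 units with DDE and that of Gsta4 by 0.32, while Gm10639 changed by 0.18, which did not pass (adjusted p = 0.17, limma). The remaining probe, further along the forward strand from 78117955, was above background on the 4 DDE arrays and on 1 of the 8 others.

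Of the other regions with high signal, that with the highest, chrX:138967807-138968413 on the reverse strand, stood at 9.23 ± 0.12 (SD, n = 4), 8.96 ± 0.09 and 8.67 ± 0.04 in control, DDE and DDE plus must. Each of its falls lost the call under at least 1 other scaling, and quantile normalisation turned the step with must to 0.07 higher. The region with the next highest signal, chr1:193875525-193978800 on the reverse strand, rose from 8.25 ± 0.03 to 8.91 ± 0.14 with DDE (1.58-fold, adjusted p = 6.1e-05, limma) and was at 8.98 ± 0.14 with must. It overlaps Rcor3, a gene for a corepressor protein on the same strand, whose probe changed by -0.10 with DDE and did not pass. A second kept probe of the same interval and strand had a mean level of -4.01, against 8.72 for the bright one, and changed by 0.27 with DDE. Whether the bright probe reads another transcript was not tested, so its rise is not assigned to this interval or to Rcor3. The region chr14:78924115-78938125 on the forward strand changed by -0.13 and -0.09 in the 2 steps, neither of which passed. Under 3 other scalings its step with must was 0.17 to 0.19 higher and passed, so its direction rests on the scaling.

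Whether a region moved with the gene beside it was described by setting each region against its nearest named gene, through that gene's kept probe. For 91 regions the interval overlapped a named gene's probe on the same strand, and the Spearman correlation of the changes across them was 0.36 for DDE against control, 0.38 for must added to DDE and 0.46 for DDE plus must against control. The change had the same sign in 70.3%, 72.5% and 70.3% of them. For 89 regions overlapping a gene probe on the opposite strand only, the correlations were 0.25, 0.05 and 0.15. The gap between region and gene had a median of 0.20 log2 units on the same strand and 0.28 on the opposite one with DDE.

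The likeness thinned out with distance. For 181 regions with the nearest gene under 10 kb away on the same strand the correlations were 0.21, 0.18 and 0.21, and for 126 on the opposite strand 0.12, 0.05 and 0.11. From 10 to 100 kb, over 317 regions on the same strand, they were 0.03, 0.09 and -0.02, and the signs matched in 50.5%, 53.3% and 47.3%. Beyond 100 kb, over 89 regions, they were -0.04, 0.13 and -0.11. These are descriptions across regions, which share arrays, scaling and in part the same gene: the 91 overlapping regions have 70 genes between them.

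**Figure D5:**
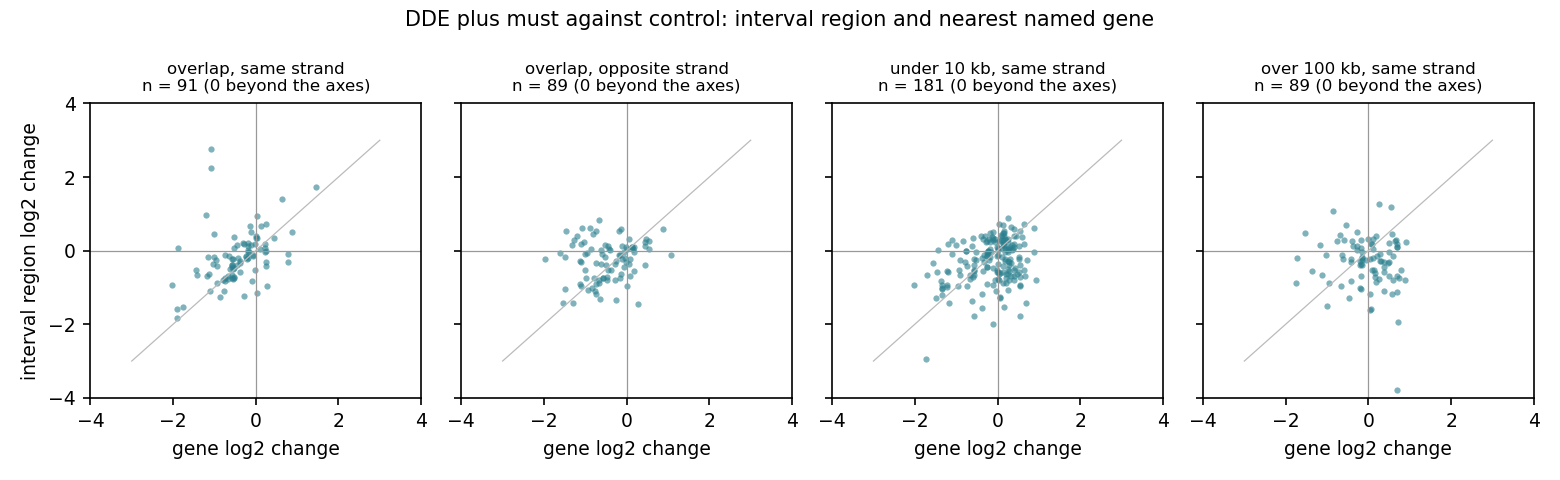
Log2 change of kept interval regions (vertical axis) against that of the nearest named gene (horizontal axis) in DDE plus must against control, for overlap on the same strand (n = 91), overlap on the opposite strand (n = 89), under 10 kb on the same strand (n = 181) and over 100 kb on the same strand (n = 89); the diagonal marks equal changes. The spread around the diagonal is narrowest in the first panel, apart from 2 points at a region change above 2.

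A second tie to genes ran through the probe letters. Of the 1306 kept regions, 60 share a run of at least 20 bases with a probe for something else on the array, 25 in the same direction and 39 as its reverse complement, 4 of them in both. Of the 60, 9 share such a run with probes under at least 3 names. Some runs are mostly a simple repeat of letters, such as that shared with Nrp2. For 15 in the same direction the partner was a kept probe of a named gene, in 7 cases on another chromosome. Regions on chromosomes 5 and 14 have the same partner, Ifitm3, so the 15 are not all separate ties to genes. Their changes went side by side: the sign matched in 15 of 15 for DDE against control, 14 of 15 for must added and 10 of 15 for DDE plus must against control, with a median gap of 0.05, 0.07 and 0.08 log2 units. The 20 regions whose letters are the complement of a named gene's probe had the same sign in 12, 10 and 12 cases, with median gaps of 0.22, 0.54 and 0.51.

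The bright region chr7:108209996-108216032 on the reverse strand is an example. It has no coordinates for its probe and shares 28 bases with Rps29, a protein of the small ribosomal subunit.
shared by chr7:108209996-108216032 and Rps29, 28 bases: taagttggactaagcgaccttgaatgga
The region changed by -0.21 with DDE, -0.31 with must added and -0.52 in DDE plus must against control, and the Rps29 probe by -0.15, -0.35 and -0.50. The region's change with DDE did not pass, and its other 2 did not under 4 of 5 other scalings.
Regions on chromosomes 5 and 14 share the same 26 bases with Ifitm3, a membrane protein that restricts viruses, and their probes had changes of 0.16 and 0.15 with DDE, of which the second did not pass (adjusted p = 0.12, limma), beside 0.17 for Ifitm3. With must they fell by 0.28 each, beside a change of -0.03 for Ifitm3, which did not pass.

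Probes of 1 interval give a measure of how far a region stands for its interval. In 132 intervals with kept regions on both strands, the changes of the strands had the same sign in 86 for DDE against control, 90 for must added and 85 for DDE plus must against control, with Spearman correlations of 0.22, 0.30 and 0.31. Both strands were called in 22, 19 and 50 intervals, and in opposite directions in 5, 1 and 13 of these. In 67 names with at least 2 kept probes on 1 strand, the 2 brightest had the same sign in 52, 54 and 55 and correlations of 0.58, 0.46 and 0.60. The median gap between changes was 0.14 log2 units for probes of 1 strand and 0.28 for probes of opposite strands with DDE. Whether the 2 kinds of pair differ was not tested.

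The strands of 2 intervals are given side by side, with no test of their difference. In chr4:128207615-128242898 the forward region had levels of -3.74, -4.47, -4.04 and -4.35 in control, -4.11, -4.56, -3.93 and -4.24 with DDE, and -2.04, -1.91, -1.94 and -1.94 with must. It was above background on 2 control, 3 DDE and all 4 must arrays and so was kept through the group in which it is high, which makes these levels a description. The reverse region was at -3.38 ± 0.13 (SD, n = 4) and -2.94 ± 0.59 in the last 2 groups and did not pass. In chr19:57426515-57435165 the reverse region fell by 0.97 log2 units with must and the forward one changed by -0.08, which did not pass.

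The named long noncoding RNAs of the array were set beside the regions. They are of mixed kinds, among them host genes of small nucleolar RNAs and imprinted transcripts, and so are no matched reference for intergenic regions. Of a list of 68 such genes, 52 are on the array and 34 were kept, each taken by its brightest probe. With DDE against control 1 rose and 25 fell, with must added 4 rose and 25 fell, and against control 2 rose and 30 fell in DDE plus must. The background over all kept probes was 23% higher and 24.5% lower, 18.6% and 27.1%, and 31.3% and 37.2% in the same order. Their median changes were -0.48, -0.52 and -0.88 log2 units, beside -0.17, -0.12 and -0.25 for the interval regions and -0.01, -0.03 and -0.04 for all kept probes. Under median centring, 5 rose and 17 fell with DDE, and 4 and 26 in DDE plus must against control. The background over all kept probes was then 47.1% higher and 10.5% lower, and 55.2% and 19.7%. Several that fell host small nucleolar RNAs, such as Snhg8, which went from 6.42 to 5.88 and 5.37, and Snhg12, from 2.10 to 1.68 and 0.59. Meg3, the imprinted noncoding RNA of the Dlk1 locus, fell by 1.94 log2 units with DDE and rose by 0.77 with must. The 2 that were higher than control in DDE plus must were Peg13, an imprinted noncoding RNA of the Kcnk9 locus, by 0.45, and 2900097C17Rik by 0.38.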

How the data were processed

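Total liver RNA of 12 samples in 3 groups of 4 was labelled with Cy3 and hybridised to one-colour Agilent arrays, per the labels. The deposited scanner files give an intensity per spot, which was detrended spatially and multiplicatively without subtracting local background, per the file headers. Feature Extraction 11.5.1.1 of Agilent, limma and RMA stand in the submitters' processing notes, which give them no role. A deposited table of log2 values of the same arrays (correlation with the scanner values 0.995 to 0.996, column medians 5.32 to 5.35) served as an alternative; no source used here gives its exact steps.

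Levels are the log2 ratio of processed intensity to the array's 75th percentile, taken over spots that are not controls. Spots the scanner software marked as outliers were left out (102 to 177 per array, 2 values of the kept regions), and spots of 1 probe were averaged. A probe was kept when well above background on all 4 arrays of a group. limma 3.58.1 (R 4.3.3) fitted the 27098 kept probes over the 12 arrays by group, with 9 residual degrees of freedom, eBayes and Benjamini-Hochberg adjustment over all of them; the words rose and fell refer to an adjusted p under 0.05. The fit was tested on simulated data. Gene names and mm9 positions are those in the scanner files. The nearest named gene is the closest kept probe that carries a gene name, with the same strand preferred among ties.

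Named regions follow a rule: the 6 brightest, per comparison the 6 largest called rises and falls among regions above background on all 12 arrays whose groups do not overlap, per comparison up to 3 of the largest bounds, and up to 6 intervals with regions on both strands or at least 3 probes; also their nearest genes within 10 kb and the called long noncoding RNAs of a list. Not all are printed. The ribosomal RNA and chromosome 9 regions, those sharing letters with other probes and genes over 10 kb away were named after their values were seen. The members and lists were chosen with earlier results of these data known. The design text gives 4 mice for the control and must groups and no number for DDE; the p-values measure the spread between the 4 arrays of a group, and their number limits the precision. Same-numbered arrays of different groups did not vary together (correlation of deviations -0.37 to 0.15), so the numbers pair nothing.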

Additional observations from a re-analysis of the deposited data

Results flagged for a closer look

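Chance marks about 1 in 20 groups of 4, and 15 of the 186 groups tested over the 62 named regions had a highest or lowest array that stood apart by Dixon's ratio. Each is given with the range of the other 3 arrays of its group (log2 level). Among the control arrays, replicate 4 of chr1:194659312-194661407 reverse was at -2.69, below the -2.47 to -2.43 of the others, replicate 4 of chr4:33375464-33377138 reverse was at -0.0415, above the -0.656 to -0.568 of the others, replicate 1 of chr5:22890322-22939119 reverse was at -3.08, above the -3.31 to -3.28 of the others, replicate 4 of chr9:78107225-78118850 forward at 78116834 was at 5.04, below the 5.24 to 5.27 of the others.

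Among the DDE arrays, replicate 1 of chr10:116814196-116920696 reverse was at -5.27, below the -3.92 to -3.75 of the others, replicate 3 of chr17:39979941-39981793 reverse was at -1.17, above the -1.4 to -1.38 of the others, replicate 1 of chr17:39983902-39985688 forward was at 5.86, above the 5.6 to 5.64 of the others, replicate 2 of chr5:136129679-136148860 reverse was at -1.63, below the -1.52 to -1.5 of the others, replicate 2 of chr8:108153471-108159346 forward was at -2, below the -1.67 to -1.62 of the others, replicate 1 of chr9:78104935-78116974 forward was at 8.34, below the 8.38 to 8.39 of the others.

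Among the DDE plus must arrays, replicate 3 of chr17:39960567-39992817 reverse was at 2.11, above the 1.93 to 1.95 of the others, replicate 1 of chr19:57426515-57435165 reverse was at -3.12, above the -3.47 to -3.43 of the others, replicate 4 of chr4:128207615-128242898 reverse was at -2.06, above the -3.33 to -3.17 of the others, replicate 4 of chr5:22890322-22939119 reverse was at -2.81, above the -3.22 to -3.15 of the others, replicate 1 of chr9:78107225-78118850 forward at 78116834 was at 6.95, above the 6.71 to 6.74 of the others.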

How the results depend on the processing

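There were 24 alternatives, each changing 1 setting except normexp with quantile normalisation, which changes 2, and the deposited values. Centring arrays on their median reversed the regions' median change to 0.065 (DDE against control), 0.0277 (must added to DDE) and 0.125 (DDE plus must against control), with 319, 233 and 477 regions called higher and 160, 200 and 323 lower. Over all kept probes, 47.1%, 32.7% and 55.2% were then called higher and 10.5%, 15.9% and 19.7% lower. Medians in the same order were -0.066, -0.0371 and -0.0777 under quantile normalisation, -0.0365, -0.0218 and -0.0467 with normexp and quantile normalisation together, and -0.06, -0.0432 and -0.0783 from the deposited values; with normexp they were -0.128 and -0.154 in the first 2. Under quantile normalisation 151 (11.6%) and 328 (25.1%) regions were called higher for must added and DDE plus must against control. Over all kept probes it was 23.3% and 38.5%. With normexp and quantile they were 158 (12.1%) and 319 (24.4%), beside 24.0% and 38.5%. From the deposited values 313 (24.0%) were higher in the latter comparison, beside 37.4%. With normexp 520 (39.8%) were lower for must added, beside 33.4%. The cause was not tested. With no filter, all 4450 regions entered, and 1167, 1197 and 2142 were called, 1045, 1100 and 1953 of them lower, with medians of -0.236, -0.249 and -0.483. Alternatives chosen after seeing the data left 889 regions, the brightest per merged stretch, or 1246 without those sharing letters. Of the 889, 335 were called with DDE, 86 higher and 249 lower, beside 23% and 24.5% over all kept probes. Their median in DDE plus must against control was -0.214. Leaving out each array in turn gave medians of -0.185 to -0.15, -0.128 to -0.104 and -0.275 to -0.238, and 428 to 514, 378 to 457 and 726 to 792 regions called, 109 to 129, 78 to 104 and 162 to 192 of them higher and 312 to 388, 294 to 355 and 555 to 600 lower. With the replicate block 467, 427 and 760 were called. The replicate numbers share nothing but the number, and no array correlated best with its own. For the counts with no filter, with arrays left out and with the replicate block, no share over all probes is given here. Those counts are only descriptions. The 62 named regions gave 136 calls over the 3 comparisons. Of these, 102 kept call and direction under every alternative and 34 did not under at least 1. Among 75 calls of at least 1 log2 unit, 3 were lost somewhere: both of chr13:70745633-70776516 with slides as a block, and that of chr1:183951156-183986156 with DDE. In all, 8 calls turned. Changes with DDE turned under median centring to 0.0131 (chr17:39960567) and 0.00904 (chr17:39980973). Must added to DDE turned chrX:138967807 to 0.0705 (quantile), chr17:17481706 to 0.0893, 0.0965 and 0.0953, and chr14:78924115, not called before, to 0.166, 0.173 and 0.185 (quantile, normexp with quantile, deposited values). Against control, DDE plus must turned under centring and those 3 settings to 0.105, 0.161, 0.174 and 0.169 (chr17:39983902), 0.155, 0.226, 0.197 and 0.195 (chr14:78924115) and 0.113, 0.126, 0.119 and 0.124 (chr17:17481706), and under centring alone to 0.128 (chr1:52706748). Changes that had not passed did so with the other sign at 0.352 (chr2:77807600 forward) and 0.295 (chr7:16584852 forward at 16647443) under centring, and at -0.234 (chr2:113880070) and -0.312 (chr9:78107225 at 78117955) with normexp. Signal over background limits the dim regions to bounds.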
